A study of Mus musculus with 7 samples.

Results

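MHC class II presentation genes encode the machinery that shows extracellular peptides to CD4+ T cells. The members were taken by name: Cd74, H2-Aa, H2-Ab1, H2-Eb1, H2-DMa, H2-DMb1 and Ciita, 7 of the 40873 genes analysed, and each was found in the table. Poly(A) RNA sequencing was done on lateral ventricle choroid plexus, the tissue that makes cerebrospinal fluid, from wild-type embryos of the outbred CD-1 mouse stock. Tissue was pooled at E15.5 (a late embryonic stage), 24 h after treatment with red blood cells in 3 libraries and with saline in 4. The cells came from E14.5 donor embryos and were washed in saline, and the labels do not say how many white cells remained among them. All libraries are labelled biological replicates and carry the batch label 1. How many embryos or litters made up a pool is not stated, so p-values cover only the variation among these libraries, part of which may be technical.

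A class II molecule pairs an alpha and a beta chain, here H2-Aa with H2-Ab1, or H2-Eb1 with the alpha chain H2-Ea. The invariant chain Cd74 holds the new dimer and takes it to the endosome, where proteases trim it. The dimer of H2-DMa and H2-DMb1 then exchanges the remaining Cd74 peptide for antigen. Ciita is the coactivator that switches on these genes together, from a promoter module of an X box bound by RFX proteins and CREB and a Y box bound by NF-Y. Dendritic cells, B cells and activated macrophages are the usual sources of class II transcripts, and interferon-gamma can induce them in other cells.

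That shared module was looked for in the members whose start sites are in the RefSeq promoter table (build GRCm38.p6). Cd74, Ciita and H2-Ab1 are not among them, so these sequences cannot show whether genes with one switch moved alike. Each line gives the 110 bases before the start site, 5′ to 3′ on the gene's strand. Capitals mark GNAACT (X box letters) and TGATTGG (Y box letters) where they stand 10 to 30 bases apart.
H2-Aa, chr17:34287824-34287933, minus strand: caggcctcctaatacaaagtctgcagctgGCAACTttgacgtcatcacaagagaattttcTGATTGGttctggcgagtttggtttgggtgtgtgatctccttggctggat
H2-Eb1, chr17:34305757-34305866, plus strand: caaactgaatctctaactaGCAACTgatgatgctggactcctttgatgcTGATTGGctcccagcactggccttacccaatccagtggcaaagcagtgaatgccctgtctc
H2-DMb1, chr17:34153081-34153190, plus strand: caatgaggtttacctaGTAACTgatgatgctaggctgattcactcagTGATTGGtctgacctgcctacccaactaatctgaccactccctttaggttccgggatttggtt
H2-DMa, first of its 2 listed start sites, chr17:34122722-34122831, plus strand: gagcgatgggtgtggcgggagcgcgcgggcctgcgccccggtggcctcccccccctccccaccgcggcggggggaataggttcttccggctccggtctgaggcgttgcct

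The Y box letters lay 50, 61 and 63 bases before the start sites of H2-Aa, H2-Eb1 and H2-DMb1, and the X box letters 81, 91 and 94 bases before them. Of 4 members with a listed promoter, 3 held TGATTGG on the gene's strand within 250 bases, against 3.64% of all 32851 promoters (7.23% on either strand). The spaced pair was in the same 3 members and in 0.158% of all promoters on either strand. The X letters and the spacing were read from these promoters, so those shares describe the members and are no independent support. All 4 listed promoters of the other class II locus genes (H2-DMb2, H2-Oa, H2-Ob and H2-Eb2) also held TGATTGG on the gene's strand, and 1 of the 4, H2-Eb2, held the spaced pair. H2-Oa and H2-Ob held GCAACA ahead of the Y box letters, which differs from the X box letters searched in the last base. A promoter without the spaced pair may thus still hold an X box. H2-DMa had neither pattern in its listed windows. H2-Ab1, Cd74 and Ciita had no entry.

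After red blood cells the transcript of the invariant chain stood above its saline level in every library, while the transcripts of the chains it serves, of the peptide exchange factor and of Ciita overlapped between the groups. Cd74 had a mean of 50.7 ± 53.85 CPM (counts per 1000000 counts, SD, n = 3) with red blood cells and 2.91 ± 1.90 CPM (SD, n = 4) with saline. H2-DMa had 9.63 ± 0.90 and 10.15 ± 0.80 CPM, and H2-DMb1 8.01 ± 3.35 and 8.18 ± 1.33 CPM. Ciita and the 3 classical chains H2-Aa, H2-Ab1 and H2-Eb1 stayed at or below 17 counts in every library.

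Counts were compared by edgeR's quasi-likelihood F test, with p-values adjusted by Benjamini-Hochberg over all 14869 genes with enough counts to test. Of the members, 4 passed the count filter (Cd74, H2-Aa, H2-DMa and H2-DMb1) and 0 of these passed the threshold of 0.05 in edgeR, where 0.0605% of all genes tested passed (0.0404% as higher). Before adjustment 1 member had a p under 0.05, Cd74, against 9.54% of all genes tested (5.22% as higher). DESeq2 called 1 member, Cd74, against 1.39% of its genes (1.1% as higher), and limma-voom called 0, against 0.0605%. The groups did not overlap for 1 of the 4, Cd74, against 9.59% of all genes tested (4.96% as higher). The plot of CPM by gene shows the 7 members in each library.

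**Figure D1:**
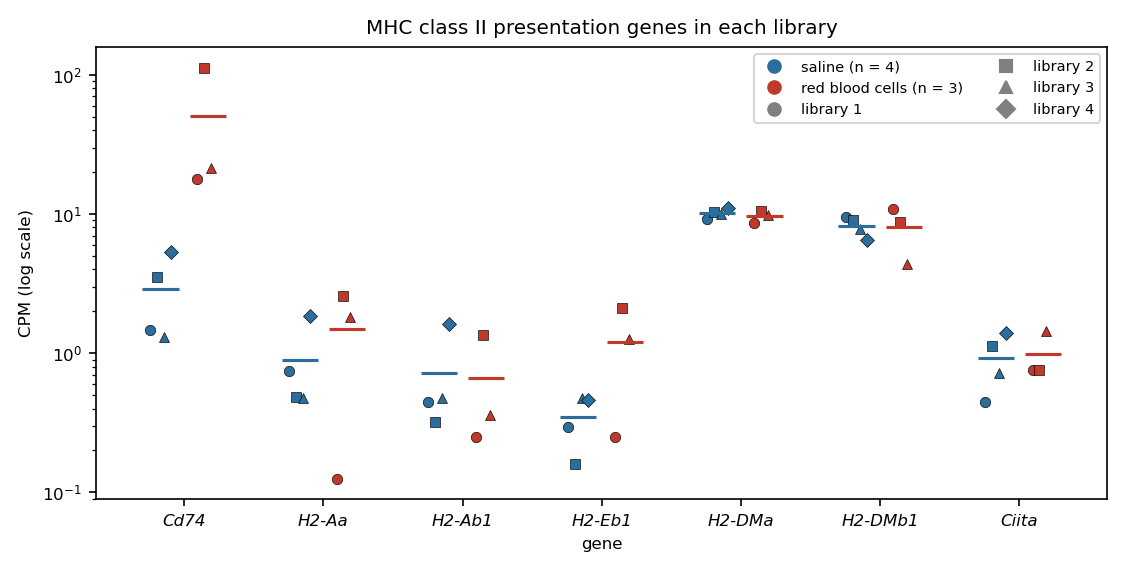
CPM of the 7 class II members on a log axis, 1 marker per library (blue saline, red red blood cells; shape gives the library number) and a bar at each group mean. The 3 red blood cell libraries lie above the 4 saline libraries for Cd74, and the groups overlap for the other 6 genes.

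Cd74, the invariant chain, had 141, 746 and 119 counts in red blood cell libraries 1, 2 and 3, and 10, 22, 11 and 23 counts in saline libraries 1 to 4. These are 17.7, 112.8 and 21.55 CPM against 1.48, 3.53, 1.32 and 5.33 CPM. Every red blood cell library lay above every saline library, as for 4.96% of genes tested. Red blood cells 2 stood above the other 2 libraries of its group, and saline 4 was the highest of the saline libraries.

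The fitted change of Cd74 was 18.9-fold (log2 change 4.24 ± 0.99, SE, edgeR adjusted p = 0.236), with a 95% confidence interval of 3.33-fold to 107.8-fold. Without red blood cells 2 it was 7.21-fold (edgeR adjusted p = 0.0688), and without both red blood cells 2 and saline 4, a choice made after seeing the data, it was 9.52-fold (edgeR adjusted p = 0.00447). The fold was 17.7 with DESeq2 (DESeq2 adjusted p = 0.000907) and 15.1 with limma-voom (limma-voom adjusted p = 0.265). Over all alternatives its adjusted p ran from 0.000907 to 0.535. Cd74 thus lay on either side of the threshold depending on the test, with the same direction each time. In these bulk pools, more or fewer cells of a type and more or less RNA per cell cannot be told apart.

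The classical chains are the peptide-binding molecule itself. H2-Aa, the A alpha chain, gave 1, 17 and 10 counts after red blood cells against 5, 3, 4 and 8 in saline. Its libraries overlapped, with the lowest and the highest value both among the red blood cell libraries, and its log2 fold change was 0.83 ± 0.78 (SE, edgeR adjusted p = 0.835). H2-Ab1, the A beta chain, had 2, 9 and 2 counts and 3, 2, 4 and 7 counts. H2-Eb1, the E beta chain, had 2, 14 and 7 counts and 2, 1, 4 and 2 counts.

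H2-Ab1 and H2-Eb1 fell below the count filter. In an edgeR fit without the filter H2-Ab1 had a log2 change of -0.01 ± 0.82 (SE, edgeR adjusted p = 0.998) and H2-Eb1 1.72 ± 0.69 (SE, edgeR adjusted p = 0.4495, unadjusted 0.0174). Red blood cells 2 had the highest count of all 3 chains, though in CPM saline 4 was highest for H2-Ab1 (1.62 against 1.36), and the counts of red blood cells 1 lay within or below the saline range. At this depth, where 3 counts equal 0.358 to 0.683 CPM, a change of these chains by a few fold was not detectable. Reads of CD-1 alleles were counted on a reference of another strain, and class II chains differ in sequence between mouse strains. The part of this in their levels was not tested.

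H2-DMa and H2-DMb1 form the exchange factor that loads peptide. H2-DMa gave 69, 69 and 54 counts after red blood cells against 62, 64, 84 and 48 in saline, or 8.66 to 10.4 CPM against 9.16 to 11.1 CPM. Its log2 fold change was -0.07 ± 0.16 (SE, edgeR adjusted p = 0.947), with a 95% confidence interval from 0.747-fold to 1.21-fold. H2-DMb1 had 87, 58 and 24 counts and 64, 56, 65 and 28 counts. Its log2 fold change was -0.02 ± 0.27 (SE, edgeR adjusted p = 0.994), with an interval from 0.652-fold to 1.498-fold. For both genes the libraries of the groups overlapped. Their intervals lie below the lower bound of 3.33-fold for Cd74, a gene singled out after its values were seen, and no test of the difference is given.

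Ciita gave 6, 5 and 8 counts after red blood cells against 3, 7, 6 and 6 in saline, 19 counts in all against 22. The fit without the count filter gave a log2 change of 0.13 ± 0.57 (SE, edgeR adjusted p = 0.971). The groups overlapped, and the standard error of 0.57 limits what change could be detected. Ciita has several promoters that start different transcripts, which a count per gene does not separate.

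The distance between Cd74 and its partners was described by the log2 ratio within each library (log2 CPM, prior count 2), for the 3 other members that passed the filter. Cd74 was taken as the reference after its separation between the groups had been seen, so no test is given. The log2 ratio of Cd74 to H2-DMa was 1.84 ± 1.35 (SD, n = 3) with red blood cells and -1.89 ± 0.78 (SD, n = 4) with saline, a difference of 3.73. The ratio to H2-DMb1 differed by 3.76 and the ratio to H2-Aa by 3.31 between the groups.

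The balance of invariant chain to chains can also be read from raw counts. With red blood cells there were 28.2, 18.65 and 6.26 counts of Cd74 for each count of H2-Aa, H2-Ab1 and H2-Eb1 together. With saline there were 1.00, 3.67, 0.917 and 1.35. The ratios rest on 5, 40 and 19 counts of the chains with red blood cells and on 10, 6, 12 and 17 with saline. Cd74 made up 45.8%, 81.3% and 53.1% of the counts of the 7 members with red blood cells and 6.71%, 14.2%, 6.18% and 18.9% in saline. The highest saline value stayed below the lowest red blood cell value in both measures. Their numerator, Cd74, had already been seen to separate the groups, so this is no independent support.

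Per kilobase of listed exon length the order of the members changed between the groups. In saline H2-DMb1 was highest at 6.37 ± 1.04 CPM per kilobase (SD, n = 4), above Cd74 at 2.06 ± 1.34 and H2-DMa at 1.22 ± 0.10. H2-Aa (0.787 ± 0.58), H2-Ab1 (0.600 ± 0.51) and H2-Eb1 (0.209 ± 0.09) followed, and Ciita was lowest at 0.0940 ± 0.043. H2-DMb1 stood above the next gene beyond their SDs, and each later neighbour lay within the SDs of the one before it. With red blood cells Cd74 came first at 35.8 ± 38.1 CPM per kilobase (SD, n = 3), then H2-DMb1 at 6.24 ± 2.61, H2-Aa at 1.33 ± 1.11 and H2-DMa at 1.16 ± 0.11. H2-Eb1 (0.726 ± 0.56), H2-Ab1 (0.552 ± 0.51) and Ciita (0.101 ± 0.041) came last. The SDs left a gap only between H2-DMb1 and H2-Aa. H2-DMa has 8325 bases of listed exons against 1284 for H2-DMb1, so its level per length is divided by a far longer model.

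The members lie in 3 places on GRCm39. The 5 H2 genes sit together on chromosome 17, H2-DMa at 34338667 to 34358075, H2-DMb1 at 34372165 to 34379203, H2-Ab1 at 34482201 to 34488392 and H2-Eb1 at 34524841 to 34535648 on the plus strand, and H2-Aa at 34501718 to 34506797 on the minus strand. Cd74 spans 60936921 to 60945724 of chromosome 18 and Ciita 10297877 to 10348928 of chromosome 16, both on the plus strand.

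Other class II genes of the same locus were also few in counts. H2-Ea, the E alpha chain, gave 0, 10 and 0 counts after red blood cells against 0, 0, 5 and 0 in saline. The counts thus came from 1 library in each group. Some inbred mouse haplotypes do not transcribe this gene, and CD-1 mice are not inbred. H2-Ob and H2-Oa, which form an inhibitor of the exchange factor, summed to 6 and 4 counts after red blood cells and to 1 each in saline, and H2-Eb2 had 1 count in all. H2-DMb2, a second beta chain of the exchange factor, had a log2 change of -0.21 ± 0.32 (SE, edgeR adjusted p = 0.917). H2-DMb1 and H2-DMb2 are close copies, so reads may have been split between them.

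The factors that bind the X and Y boxes were present in all libraries. Of 7 tested (Rfx5, Rfxap, Rfxank, Nfya, Nfyb, Nfyc and Creb1), 0 passed in edgeR (1 before adjustment; DESeq2 and limma-voom each called 0), and their median log2 fold change was 0.07 where that of all genes tested was 0.00. Nfya (0.15 ± 0.10 in log2, SE) and Creb1 (0.07 ± 0.11) were among the most counted. Rfx5 (0.35 ± 0.12, edgeR adjusted p = 0.310) was the member with a p under 0.05 before adjustment.

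Upstream of Ciita, interferon-gamma acts through its receptor, Jak kinases and Irf1. Ifng itself had 0 counts in all 7 libraries, below the limit of 3 counts (0.358 to 0.683 CPM). Of 8 genes of this axis tested, 8 were higher and 0 passed in edgeR (3 before adjustment; DESeq2 called 2 and limma-voom 0), with a median log2 fold change of 0.17. Irf1 had 23.9 ± 9.33 CPM (SD, n = 3) after red blood cells and 12.8 ± 2.32 CPM (SD, n = 4) in saline (edgeR adjusted p = 0.203, DESeq2 adjusted p = 0.0489). Ifngr2, a receptor chain, had 69.6 ± 11.8 and 48.7 ± 3.01 CPM (edgeR adjusted p = 0.112, DESeq2 adjusted p = 0.0114). Of the 8, 4 did not overlap between the groups (Irf1, Ifngr2, Irf8 and Jak1), all higher, against 4.96% of all genes tested as higher. Jak1 among them had a log2 change of only 0.10 ± 0.06 (SE, edgeR adjusted p = 0.7185). Irf1 was highest in red blood cells 2, as Cd74 was. Of 5 repressors of Ciita tested (Prdm1, Bcl6, Tgfb1, Hdac2 and Sin3a), 0 passed in edgeR (1 before adjustment, Bcl6; DESeq2 and limma-voom each called 0), with a median of 0.13.

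Proteases that trim Cd74 and antigen in the endosome were compared as a list of 10. In edgeR 0 passed (1 before adjustment; DESeq2 called 1 and limma-voom 0), with a median log2 fold change of 0.12. Cathepsin S, which makes the last cuts of the invariant chain, was that gene. Ctss gave 292, 416 and 162 counts after red blood cells against 94, 83, 165 and 101 in saline, or 43.0 ± 17.7 and 17.6 ± 4.84 CPM. Its groups did not overlap (log2 change 1.30 ± 0.31, SE, edgeR adjusted p = 0.196, DESeq2 adjusted p = 0.000644). Ifi30, the thiol reductase that unfolds antigen, had 48.0 ± 7.68 and 43.7 ± 4.86 CPM. The abundant proteases Ctsd, Ctsb and Lgmn had log2 fold changes of -0.07 ± 0.07, 0.11 ± 0.15 and 0.06 ± 0.07. Of 6 genes of class II turnover and tetraspanin partners, Cd82, Cd63 and Cd81 among them, 0 passed in edgeR (0 before adjustment; DESeq2 and limma-voom each called 0), with a median of 0.08.

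Ligands that accompany class II at the T cell contact had few counts. Of 7 listed, 4 were tested (Cd86, Cd40, Icosl and Cd274), all 4 higher, with 0 past the edgeR threshold (4 before adjustment; DESeq2 and limma-voom each called 0) and a median log2 fold change of 1.05. Cd86, a co-stimulatory ligand, gave 32, 28 and 36 counts after red blood cells against 19, 13, 19 and 8 in saline (edgeR adjusted p = 0.1695). Icosl had 6.42 ± 2.63 and 2.59 ± 0.44 CPM (edgeR adjusted p = 0.136). The summed level of the 7 genes ran from 22.1 to 24.5 CPM with red blood cells and from 9.81 to 12.97 CPM with saline. This sum was even among the red blood cell libraries, unlike Cd74.

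At the cell surface Cd74 also binds the cytokine Mif, with Cd44 as its signalling partner. Of 4 genes of this axis tested, 0 passed in edgeR (2 before adjustment; DESeq2 called 1 and limma-voom 0), with a median of -0.11. Cd44 gave 298, 310 and 105 counts after red blood cells against 70, 91, 99 and 79 in saline (log2 change 1.35 ± 0.32, SE, edgeR adjusted p = 0.187, DESeq2 adjusted p = 0.00112), and its groups did not overlap. Cxcr4, a chemokine receptor that also binds Mif, was the other gene with a p under 0.05 before adjustment, at -0.47 ± 0.20 (SE, edgeR adjusted p = 0.460). Mif had -0.04 ± 0.11 and its homolog Ddt -0.18 ± 0.13. Cxcr2, also on this list, fell below the count filter. It gave 6, 49 and 5 counts after red blood cells against 3, 1, 4 and 1 in saline. The fit without the filter gave it a log2 change of 3.07 ± 0.945 (SE, edgeR adjusted p = 0.384).

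MHC class I genes show the peptides of the cell's own interior and have Nlrc5 as their main coactivator, although Ciita can act on them too. Of 9 class I genes, 9 were higher, with 0 past the edgeR threshold (9 before adjustment; DESeq2 called 8 and limma-voom 0) and a median log2 fold change of 2.83. Nlrc5 gave 62, 155 and 12 counts after red blood cells against 4, 4, 5 and 2 in saline, beside 6, 5 and 8 and 3, 7, 6 and 6 for Ciita. The fold of Nlrc5 was 18.65 (edgeR adjusted p = 0.143) and fell to 8.55 without red blood cells 2, where it passed the threshold (edgeR adjusted p = 0.0405), as it did without red blood cells 3 (25.8-fold, edgeR adjusted p = 0.00179). Cd74, at a log2 change of 4.24, lay near the highest of the class I genes (1.18 to 4.22). Nlrc5 was above Cd74 with DESeq2 (4.27 against 4.14) and without red blood cells 2 (3.10 against 2.85) or 3 (4.69 against 4.61), and no difference between Cd74 and these genes was tested. The plot of fold changes by pathway sets these groups side by side.

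**Figure D2:**
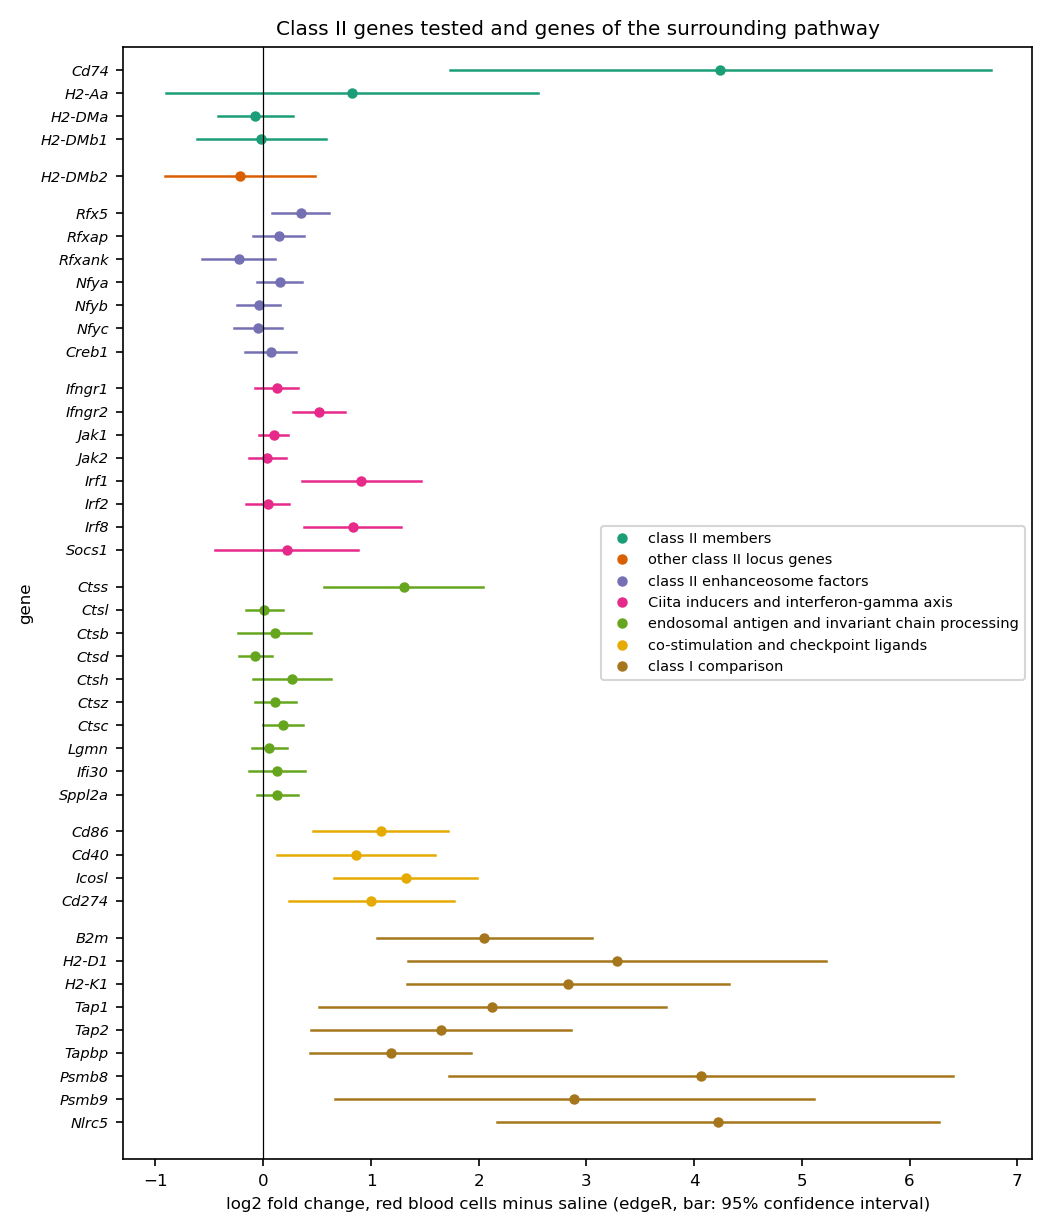
Log2 fold change (red blood cells minus saline, edgeR) of the class II members that passed the count filter and of the tested genes of 6 other lists, with 95% confidence intervals. Cd74 lies at 4.24, level with the highest class I gene (Nlrc5, 4.22), and H2-DMa and H2-DMb1 lie at -0.07 and -0.02.

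Markers of cells that carry class II were set beside these values. All 16 macrophage markers were higher, as were 49.9% of all genes tested, with a median of 0.89. In edgeR 1 of them passed the threshold (Adgre1, 1.09 ± 0.15 in log2, SE, edgeR adjusted p = 0.0280). Before adjustment 14 had a p under 0.05, against 9.54% of all genes tested (5.22% as higher). DESeq2 called 11, against 1.39% of its genes, and limma-voom 0. Mrc1, Lyve1 and Cd163 overlapped between the groups, and the other 13 did not, against 4.96% of all genes tested as higher. The call of Adgre1 was lost without saline 1, 2 or 3 (edgeR adjusted p = 0.132, 0.172 and 0.171) and in limma-voom (limma-voom adjusted p = 0.0501). It was also lost with the replicate block (edgeR adjusted p = 0.134). The next values are for all 16 macrophage markers. Their summed level was 425.5, 635.3 and 572.9 CPM with red blood cells and 262.5 to 354.3 CPM with saline. Csf1r, the growth factor receptor of macrophages, had 94.9 ± 19.3 and 64.25 ± 6.54 CPM. Per 100 CPM of these 16 markers there were 4.16, 17.8 and 3.76 CPM of Cd74 with red blood cells and 0.417, 1.35, 0.420 and 1.64 CPM with saline. The classical chains had 0.148, 0.952 and 0.601 CPM on that scale with red blood cells and 0.417, 0.367, 0.458 and 1.21 CPM with saline, and overlapped. The part of macrophage number in the Cd74 level was not tested.

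**Figure D3:**
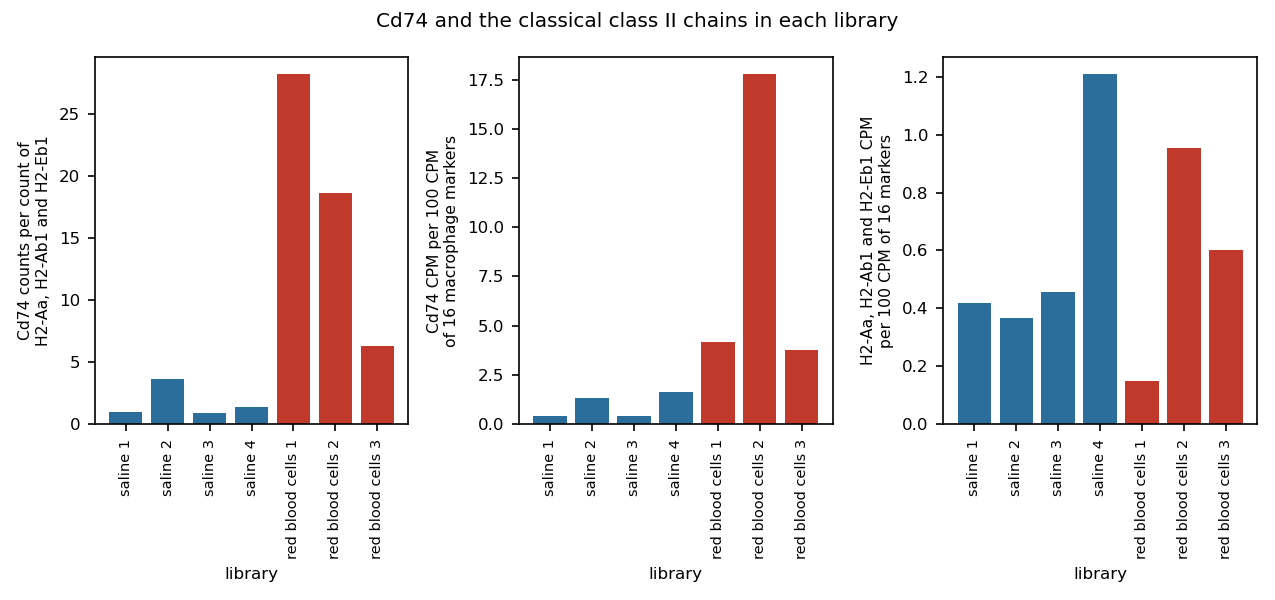
Bars for each library (blue saline, red red blood cells) of Cd74 counts per count of H2-Aa, H2-Ab1 and H2-Eb1, of Cd74 CPM per 100 CPM of 16 macrophage markers, and of the 3 chains per 100 CPM of the same markers. The red blood cell and saline libraries span 6.26 to 28.2 and 0.917 to 3.67 in the first panel, 3.76 to 17.8 and 0.417 to 1.64 in the second, and 0.148 to 0.952 and 0.367 to 1.21 in the third.

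Several markers of the other class II cells were near 0, while others on their lists had counts in every library. Among dendritic cell genes, Xcr1 had 0 counts in all libraries and Flt3 gave 2, 4 and 0 counts after red blood cells against 0, 0, 1 and 0 in saline. Of 10 dendritic cell markers 3 were tested (Zbtb46, Itgax and Siglech) and 0 passed in edgeR (0 before adjustment; DESeq2 and limma-voom each called 0). The summed level was 21.9 to 26.0 CPM and 20.4 to 27.2 CPM, mostly Zbtb46, which endothelium also expresses. Itgax gave 18, 10 and 3 counts after red blood cells against 11, 5, 13 and 11 in saline. Among 7 B cell markers, Ms4a1 had 0 counts in all libraries, Cd79a gave 2, 0 and 5 counts after red blood cells against 1, 1, 3 and 1 in saline, and the sum was 5.27 to 11.5 CPM and 4.31 to 5.62 CPM. Most of that sum was Ighm, with 31, 58 and 24 counts against 23, 29, 21 and 15 (edgeR adjusted p = 0.549). In the list of T cell, NK and innate lymphoid markers, Cd8a, Nkg7 and Ncr1 had 0 counts in all libraries and Cd3e had 1 count, in red blood cells 2.

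The summed level of monocyte and neutrophil markers was far higher in 1 library, but not all of these markers were. Their 12 genes summed to 8.04, 94.8 and 15.2 CPM in red blood cells 1, 2 and 3 and to 4.65 to 25.25 CPM with saline. Of 4 tested, 0 passed in edgeR (0 before adjustment; DESeq2 and limma-voom each called 0). Ccr2, a receptor of inflammatory monocytes, gave 12, 125 and 29 counts after red blood cells against 14, 10, 27 and 11 in saline. S100a9 had 11, 294 and 18 counts against 36, 5, 11 and 19, and S100a8 had 4, 111 and 11 against 23, 4, 3 and 5. In CPM, Plac8, Mpo, Elane, Ngp, Ltf and Camp were each highest in a saline library. Red blood cells 2, the library with the highest CPM of Cd74, H2-Aa, H2-Eb1 and H2-Ea, was also highest in the summed level. The part of monocytes and neutrophils in the values of those 4 genes was not tested.

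Markers of the labelled tissue were abundant in all libraries. Choroid plexus epithelial markers such as Ttr and Clic6 summed to 17150 to 18630 CPM with red blood cells and 17330 to 22500 CPM with saline (8 tested, all lower, 0 past the edgeR threshold, 2 before adjustment; DESeq2 called 1 and limma-voom 0, median -0.08). Erythroid (median -0.06), endothelial (0.00) and stromal markers (0.08) had 0 genes past the edgeR threshold in each list of 8 (0 before adjustment; DESeq2 and limma-voom each called 0). Library totals ran from 4393860 to 8386928 counts.

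The pattern of the members over the 7 libraries was compared with that of 11237 genes with a mean count of at least 50, leaving out the members and genes with predicted symbols (Gm numbers and names ending in Rik). The measure was the root mean square difference in log2 CPM from the saline mean. Nearest to the mean of the 4 members tested were Unc93b1 (0.142), Plcg2 (0.181), Tmem176a (0.187), Laptm5 (0.191) and Rac2 (0.199). Unc93b1 encodes the carrier of endosomal Toll-like receptors, Laptm5 a lysosomal membrane protein of blood cells, and Rac2 a GTPase of blood cells. That mean averages Cd74 with 3 genes that stayed near their saline level or overlapped it, so it is flatter than Cd74.

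Nearest to Cd74 alone, a profile chosen after its values were seen, were Psmb8 (0.562), Ehf (0.598), Irf7 (0.630), Ifitm3 (0.660) and Gbp3 (0.708). Psmb8 is a subunit of the immunoproteasome, Irf7 an interferon regulatory factor, Ifitm3 an antiviral membrane protein and Gbp3 a guanylate-binding protein. Relative to its saline mean Cd74 stood at 2.68, 5.33 and 2.96 in log2 in red blood cells 1, 2 and 3, and Psmb8 at 3.04, 5.02 and 1.94. In red blood cells 3 Cd74 was further above saline than all 5 of these genes, which lay between 1.62 and 2.03.

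**Figure D4:**
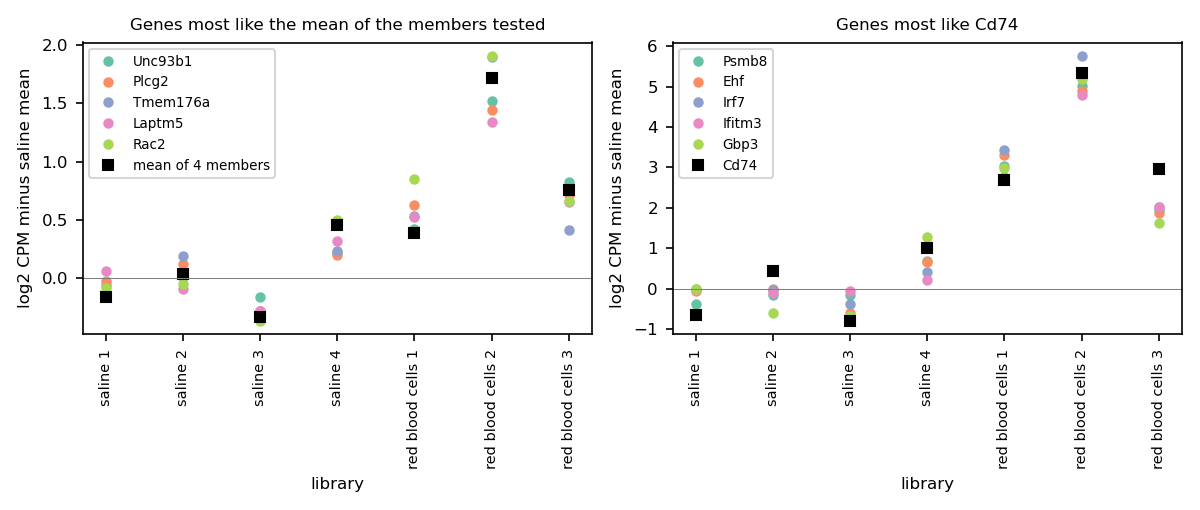
Log2 CPM minus the saline mean in each library for the mean of the 4 members tested (left, black squares) and for Cd74 (right, black squares), with the 5 genes nearest to each as coloured points. Red blood cells 2 is highest in both panels, and in red blood cells 3 Cd74 at 2.96 lies above the 5 genes beside it.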

How the data were processed

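Raw read counts per gene for 7 libraries were deposited by the authors, laid out as featureCounts writes them. Tools named in the submitters' processing notes are cutadapt 2.5 (trimming), STAR 2.6.1b (alignment) and featureCounts 2.0.6, with build GRCm39. The library kit was directional, per the labels' protocols. Annotation release, counting strand and multi-mapping settings were not given. Entries of 6 genes broken over 2 lines were left out, and their second lines held 0.0751% of counts.

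Tests used edgeR 4.0.16 (robust quasi-likelihood F test, two-sided, R 4.3.3) after TMM normalization and filterByExpr. Standard errors come from the F statistic, and CPM use TMM library sizes. Alternatives were DESeq2 1.42.0, limma-voom (limma 3.58.1), other normalizations and filters, a fit without robust estimation, a replicate block and each library left out. The edgeR, DESeq2 and limma-voom fits were tested on simulated counts. Figures used matplotlib 3.10.9.

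The members and the 18 gene lists were chosen with earlier results of these data known. The text names all members, the other class II locus genes, up to 4 genes per list past the threshold or else the 3 most counted, a set of single genes such as Irf1, Ctss and Ifng, and the 5 genes nearest in pattern. Further genes were named after their values were seen. Results for 1 listed gene are not reported here, and list counts leave it out.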

Additional observations from a re-analysis of the deposited data

Results flagged for a closer look

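Among the saline libraries, 1 library stood apart from the other 3 for a number of the genes named above, by a gap test run on 71 genes. It flags about 1 in 20 groups by chance where values are normally distributed. Where the other 3 libraries have 0, any count is flagged. For the member H2-Ab1, saline 4 had 1.62 CPM (7 counts) and the others 0.321 to 0.479 CPM. H2-DMb2 had 5.32 CPM in saline 1 and 3.01 to 3.37 CPM in the others. For genes at 0 in the other 3 saline libraries, the flag rests on 5 counts for H2-Ea (0.598 CPM, saline 3) and on 1 count each for Flt3, H2-Oa and H2-Ob (0.120 CPM, saline 3) and H2-Eb2 (0.160 CPM, saline 2). Cd4 had 0 CPM in saline 4 and 0.739 to 0.837 CPM in the others. Ctsb had 1340 CPM in saline 4 and 901.4 to 928.3 CPM in the others. Col1a2 had 501.2 CPM in saline 4, Hdac2 146.4 CPM in saline 3 and Mif 154.9 CPM in saline 1, against 536.4 to 542.6, 135.3 to 136.5 and 128.8 to 133.0 CPM in the others.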

How the results depend on the processing

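Cd74 kept its direction in 17 of 17 alternatives, with a log2 fold change of 2.85 to 4.66, and passed the threshold in 3 of them: DESeq2, the replicate block and the fit without red blood cells 2 and saline 4, each with 1 member called against 0 in the main test. Leaving out single libraries left 0 members called. H2-DMa ran from -0.14 to 0.00 and H2-DMb1 from -0.31 to 0.26 over 17 alternatives, and H2-Aa from 0.10 to 1.43 over 14. The median over the members tested was 0.404. It was 0.063 with limma-voom, -0.021 with only genes averaging 50 counts or more and -0.093 without red blood cells 2 and saline 4, and -0.025 to 0.717 with single libraries left out. H2-Aa failed the filter in the fit of genes averaging 50 counts or more and in the fits leaving out saline 4. The medians of -0.021, -0.093 and -0.025 are therefore over 3 members, where the main test had 4. The number of genes called varied: 9 in the main test, 280 with DESeq2, 136 without a count filter, 16 without robust estimation, 40 without red blood cells 2 and saline 4, and 1 to 283 with single libraries left out. Of genes in the other lists, 1 was called in the main test, 24 with DESeq2, 0 with limma-voom, 11 without a count filter, 2 without robust estimation, 5 without red blood cells 2 and saline 4, and 0 to 17 with single libraries left out. The causes were not tested. With the replicate block, 2 genes were called in all, Cd74 among them (log2 fold change 4.37, edgeR adjusted p = 0.0189), and 0 genes of the other lists (Adgre1, edgeR adjusted p = 0.134). Replicate number 4 occurs only in saline, so saline 4 adds nothing to the fitted changes with this block. Saline 4 was the highest saline library for Cd74. Same-numbered libraries had deviations correlated at -0.008, -0.173 and -0.173 across genes, and differently numbered ones at -0.213 to 0.261. So few pairs cannot show whether same-numbered libraries shared a litter or day, which is not stated.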
